A study of Arabidopsis thaliana with 28 samples.

Results

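Of the 28437 genes in the deposited table, 10 were taken by locus as secondary cell wall genes: CESA4 (AT5G44030), CESA7 (AT5G17420), CESA8 (IRX1, AT4G18780), IRX9 (AT2G37090), IRX10 (AT1G27440), LAC4 (AT2G38080), LAC17 (AT5G60020), COBL4 (AT5G15630), MYB46 (AT5G12870) and NST1 (AT2G46770). They were named for their function. Of the 10, 9 reached 1 RPM (reads of a gene scaled to a fixed library total) in at least 3 libraries and were tested among 22329 genes, and NST1 did not. The libraries came from whole Arabidopsis seedlings 2 weeks old, grown on 1/2 MS agar in long days, with 3 libraries for each of 8 genotypes. Hybrids that carried a mutant allele of the chromatin remodeler gene DDM1 from each parent were ddm1-C24XCol and ddm1-ColXC24 (mother named before father), from the mutant parents ddm1-C24 and ddm1-Col. The same crosses between wild-type parents were WT-C24XCol and WT-ColXC24, from WT-C24 and WT-Col. Both reciprocal crosses were pooled as ddm1-F1 and WT-F1, with 6 libraries each, and the mid-parent value (MPV) is the mean RPM of the C24 and the Col library with the same replicate number. The study crossed ddm1-1, ddm1-10 and ddm1-16 in Col with ddm1-9, ddm1-14 and ddm1-15 in C24, so that the 2 alleles of a ddm1 hybrid differed; which of them gave these libraries is not given in the sources used here. Nor is it stated how many seedlings made up a library or what a replicate number marks, so p-values measure the spread between these libraries.

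Secondary walls are laid down inside the primary wall of xylem vessels and fibers once those cells have stopped expanding. Their cellulose is made by a complex of CESA4, CESA7 and CESA8, their xylan by glycosyltransferases that include IRX9 and IRX10, and their lignin by monolignol enzymes followed by laccases such as LAC4 and LAC17, which oxidize monolignols in the wall. NAC factors (VNDs in vessels, NST1 and its relatives in fibers) switch on MYB46 and MYB83, which in turn switch on many of the wall genes. Loss of several of these genes gives collapsed xylem vessels, from which the irx (irregular xylem) names come. In whole seedlings, fewer xylem cells and less RNA per xylem cell cannot be told apart.

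Facts of the whole set bear on every value below. Libraries with the same replicate number deviated together, and each comparison was therefore fitted first ignoring the number and then blocking on it. DDM1 itself was at 2.6, 1.7 and 2.6 RPM in ddm1-Col, against 6.3, 9.5 and 12.6 RPM in WT-Col. It was at 6.7, 14.3 and 13.2 RPM in the libraries labelled ddm1-C24, against 6.0, 7.0 and 12.4 RPM in WT-C24, so the level of this transcript did not separate those C24 libraries. The number of genes at 0 RPM did, at 3975, 2501 and 2503 in ddm1-C24, against 6076, 5765 and 4596 in WT-C24. In ddm1-Col it was 3865, 3758 and 2318, against 6009, 5964 and 4822 in WT-Col. The light-harvesting gene LHCB2.1 marked the numbers: it lay between 24.3 and 63.6 RPM in every number 3 library, at 47.7 RPM in ddm1-C24 replicate 2, and between 929.2 and 3185.7 RPM in the others. The library labelled ddm1-C24 replicate 2 went with the number 3 libraries over all tested genes too: its deviations from the genotype mean had a mean r of 0.659 with the number 3 and 0.298 with the number 2 libraries of the other genotypes, against 0.653 and 0.285 for ddm1-C24 replicate 3. Over 13036 genes with a mean of at least 10 RPM, ddm1-C24 replicates 2 and 3 differed by a median of 0.068 on the log2 scale, against 0.22 to 0.549 for the other 23 pairs of replicates. They may be 1 library deposited under 2 labels, which RPM values without depth cannot show, so blocked calls in ddm1-F1 against the MPV and against ddm1-C24 are also given without replicate 2. AP1 and LFY, which mark flower primordia, did not exceed 0.4 RPM in any library, and the 4 floral markers summed to 7.0 to 16.5 RPM in ddm1-F1 and 2.6 to 4.8 RPM in WT-F1.

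Divided by length, the expressed members still differed in abundance, with LAC4 highest and MYB46 lowest. Over all 24 libraries, and per kb of the longest annotated transcript, the mean level was 7.22 RPM for LAC4, 6.70 for IRX10, 6.28 for CESA4, 4.67 for LAC17, 4.41 for CESA7, 4.08 for CESA8, 3.92 for IRX9, 3.0 for COBL4 and 1.71 for MYB46. NST1, a fiber NAC factor, was listed at 0 or 0.1 RPM in each of the 24 libraries. In the TAIR10.1 annotation the loci of CESA4, CESA8 and LAC17 each overlap 2 other genes and that of CESA7 overlaps 1. Whether the counting used strand is not given in the sources used here, so reads shared with those neighbours cannot be told apart.

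Much of the spread of these genes went with the replicate number rather than with genotype. The number held 87.4% of the sum of squares of log2(RPM + 0.5) for LAC4, 81.9% for IRX10, 81.5% for IRX9, 68.0% for LAC17, 60.7% for MYB46 and 53.7% for COBL4. LAC4 was at 21.7 to 34.9 RPM in the 8 libraries of number 1, at 6.2 to 12.9 RPM in those of number 2 and at 9.1 to 14.7 RPM in those of number 3. The cellulose synthases were different: genotype held 60.1% for CESA4, 53.3% for CESA7 and 62.4% for CESA8, and the number held 25.9%, 35.9% and 10.4%. Summed over all tested genes, so that the most variable genes weigh most, genotype held 73.5% and the number 21.8%. Genotype has 8 levels against 3 for the number, so it takes a larger share by chance alone.

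**Figure D1:**
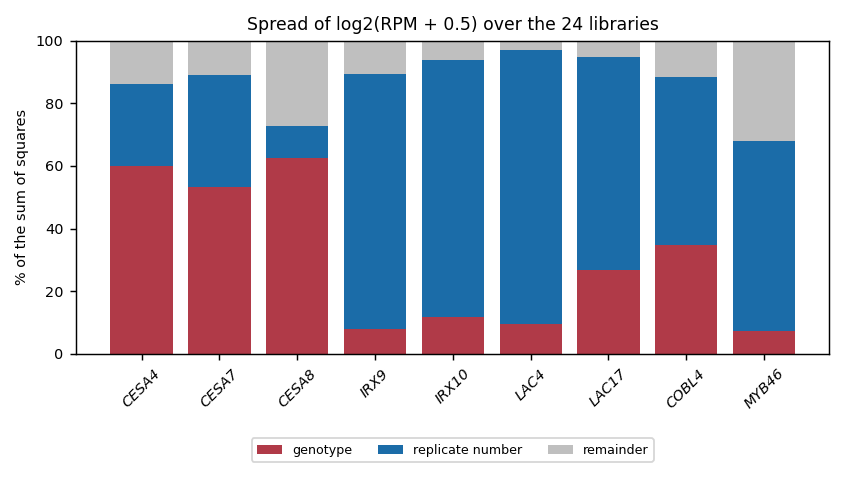
Share (%) of the sum of squares of log2(RPM + 0.5) over the 24 libraries that went with genotype, with replicate number and with the remainder, for the 9 tested genes. Genotype held more than the replicate number for CESA4, CESA7 and CESA8, and the number held more for the other 6, with 87.4% for LAC4.

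The 250 bases before the gene starts of the 3 cellulose synthases and LAC17 are shown because these 4 genes carry most of the calls below. The sequences are from RefSeq TAIR10.1, written 5′ to 3′ on the strand of the gene, at chr5:17714140-17714389 (CESA4, plus strand), chr5:5741501-5741750 (CESA7, minus strand), chr4:10316887-10317136 (CESA8, minus strand) and chr5:24167746-24167995 (LAC17, plus strand). Capitals mark matches on either strand to the 7-base secondary wall MYB-responsive element (SMRE) bound by MYB46 and MYB83, which reads ACC, then A or T, then A, then A or C, then C or T.
CESA4: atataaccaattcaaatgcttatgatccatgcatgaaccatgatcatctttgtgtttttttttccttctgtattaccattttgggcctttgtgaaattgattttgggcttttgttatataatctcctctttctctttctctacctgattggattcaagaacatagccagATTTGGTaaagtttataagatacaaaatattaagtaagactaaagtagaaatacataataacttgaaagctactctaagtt
CESA7: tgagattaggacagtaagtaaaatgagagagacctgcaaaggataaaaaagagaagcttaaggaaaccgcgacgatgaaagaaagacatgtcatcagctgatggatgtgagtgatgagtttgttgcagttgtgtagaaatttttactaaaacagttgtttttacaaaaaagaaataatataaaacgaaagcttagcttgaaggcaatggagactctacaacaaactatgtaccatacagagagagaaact
CESA8: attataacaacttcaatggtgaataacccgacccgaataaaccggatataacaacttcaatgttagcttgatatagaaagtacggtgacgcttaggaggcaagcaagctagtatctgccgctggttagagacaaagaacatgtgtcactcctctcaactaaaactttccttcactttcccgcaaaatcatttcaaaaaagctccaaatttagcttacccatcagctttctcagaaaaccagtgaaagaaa
LAC17: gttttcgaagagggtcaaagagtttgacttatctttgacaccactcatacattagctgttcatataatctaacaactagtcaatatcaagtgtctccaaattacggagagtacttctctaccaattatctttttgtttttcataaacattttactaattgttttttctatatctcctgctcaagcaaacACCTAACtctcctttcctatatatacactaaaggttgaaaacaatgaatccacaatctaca
The CESA4 window held 1 match, on the strand opposite to the gene, and the LAC17 window 1 match on the strand of the gene, while the CESA7 and CESA8 windows held none. IRX10 was the third of the 10 members with a match in this window. Of 27443 protein-coding genes with a window of the same length, 29.4% held at least 1, so 3 of 10 is near the share of all promoters. A match here is a run of letters and no evidence of binding, and the absence of one says only that these letters are not in this window.

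CESA4, one of the 3 secondary wall cellulose synthases, was at 19.9, 22.8 and 25.1 RPM (lowest, median and highest) in the 6 ddm1-F1 libraries, against 22.6, 22.8 and 22.4 RPM in ddm1-C24 and 29.6, 23.9 and 29.2 RPM in ddm1-Col. The ddm1-F1 libraries overlapped both of their parents. In the WT background it was at 14.9, 20.6 and 21.6 RPM in the 6 WT-F1 libraries, against 24.6, 18.7 and 22.4 RPM in WT-C24 and 26.7, 25.6 and 27.5 RPM in WT-Col. All WT-F1 libraries lay below all WT-Col libraries, and they overlapped those of WT-C24.

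CESA7 (IRX3), the second subunit, was at 12.8, 15.9 and 17.3 RPM (lowest, median, highest) in ddm1-F1, against 16.9, 16.3 and 15 RPM in ddm1-C24 and 19.4, 14.6 and 16.8 RPM in ddm1-Col, with overlap on both sides. In WT-F1 it was at 9.6, 12.2 and 14.0 RPM, against 18.9, 14.1 and 14.0 RPM in WT-C24 and 18, 13.6 and 18.3 RPM in WT-Col. The highest WT-F1 library equalled the lowest of WT-C24.

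CESA8 (IRX1), the third subunit, was at 10.6, 14.0 and 15.8 RPM (lowest, median, highest) in ddm1-F1, against 12.9, 16.0 and 16.1 RPM in ddm1-C24 and 14.1, 14.4 and 14.7 RPM in ddm1-Col, with overlap on both sides. No member was separated from ddm1-C24 or from ddm1-Col in the lower direction, against 11.5% and 3.05% of all tested genes. In WT-F1 CESA8 was at 10.5, 11.3 and 12.1 RPM, against 15.8, 14.4 and 14.5 RPM in WT-C24 and 14.2, 13.4 and 15.9 RPM in WT-Col. All WT-F1 libraries were below all 6 WT parent libraries. Such separation from WT-C24 was found for 3.49% of all tested genes and from WT-Col for 2.16%; CESA8 was the single member separated from WT-C24, and CESA4 and CESA8 were the members separated from WT-Col.

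IRX9 and IRX10, which take part in making the xylan backbone, followed the replicate number more than the cross. IRX9 was at 3.1, 5.55 and 8.1 RPM (lowest, median, highest) in ddm1-F1, against 8.2, 5.3 and 5.2 RPM in ddm1-C24 and 8.0, 3.9 and 6.3 RPM in ddm1-Col. The WT-F1 hybrids had 2.6, 5.6 and 8.1 RPM, against 9.5, 3.7 and 5.7 RPM in WT-C24 and 7.5, 4.7 and 6.1 RPM in WT-Col. Hybrids and parents overlapped in both backgrounds. IRX10 was at 8.6, 10.6 and 16.6 RPM in ddm1-F1, against 18.6, 12.3 and 12.7 RPM in ddm1-C24 and 15.9, 8.6 and 11.6 RPM in ddm1-Col. In WT-F1 it was at 6.9, 10.3 and 15.7 RPM, against 17.6, 8.6 and 11.5 RPM in WT-C24 and 14.4, 9.2 and 12.6 RPM in WT-Col. For IRX10 each of the 6 ddm1-F1 and each of the 6 WT-F1 libraries was below the same-numbered MPV. So were those of CESA4 and LAC17, and in WT-F1 also those of CESA7, CESA8, LAC4 and COBL4. The share of all tested genes with this order is not given here. The IRX10 MPV of ddm1 number 2 (10.45 RPM) holds ddm1-C24 replicate 2 (12.3 RPM), whose label is in doubt as described above. The ddm1-F1 libraries of that number, at 8.6 and 10.3 RPM, were not below the same-numbered ddm1-Col library (8.6 RPM).

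LAC17, a laccase of lignin polymerization, was at 5.5, 9.3 and 13.3 RPM (lowest, median, highest) in ddm1-F1, against 15.1, 9.3 and 8.9 RPM in ddm1-C24 and 15.8, 6.8 and 11.0 RPM in ddm1-Col. Its WT-F1 levels were 3.2, 6.55 and 10.9 RPM, against 15, 6.2 and 8.7 RPM in WT-C24 and 18.4, 7.9 and 10.5 RPM in WT-Col. The groups overlapped, and the number 1 library was the highest in every genotype. Within each number every WT-F1 library was below both WT parents. LAC4 (IRX12), the partner laccase, was at 7.6, 12.9 and 25.3 RPM in ddm1-F1, against 34.9, 12.9 and 13.4 RPM in ddm1-C24 and 27.4, 9.8 and 12.9 RPM in ddm1-Col. LAC4 stood at 6.2, 9.8 and 23.6 RPM in WT-F1, against 32.0, 10 and 10.5 RPM in WT-C24 and 27.9, 9.6 and 14.7 RPM in WT-Col, again overlapping.

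COBL4 (IRX6), a GPI-anchored protein needed for cellulose deposition in secondary walls, was at 4.6, 6.0 and 8.5 RPM (lowest, median, highest) in ddm1-F1, against 7.0, 5.8 and 6.3 RPM in ddm1-C24 and 7.9, 5.5 and 5.9 RPM in ddm1-Col. COBL4 had 3.4, 4.8 and 6.0 RPM in WT-F1, against 7.3, 5.4 and 6.2 RPM in WT-C24 and 6.1, 5.1 and 6.1 RPM in WT-Col. Both sets overlapped. MYB46, the master switch above many wall genes, was low, with overlap throughout: 1.3, 1.95 and 2.9 RPM in ddm1-F1, against 3.1, 2.8 and 1.6 RPM in ddm1-C24 and 3.2, 0.9 and 2.3 RPM in ddm1-Col. In WT-F1 it was at 1.1, 2.0 and 2.8 RPM, against 3.7, 1.7 and 1.7 RPM in WT-C24 and 2.6, 1.7 and 1.6 RPM in WT-Col.

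**Figure D2:**
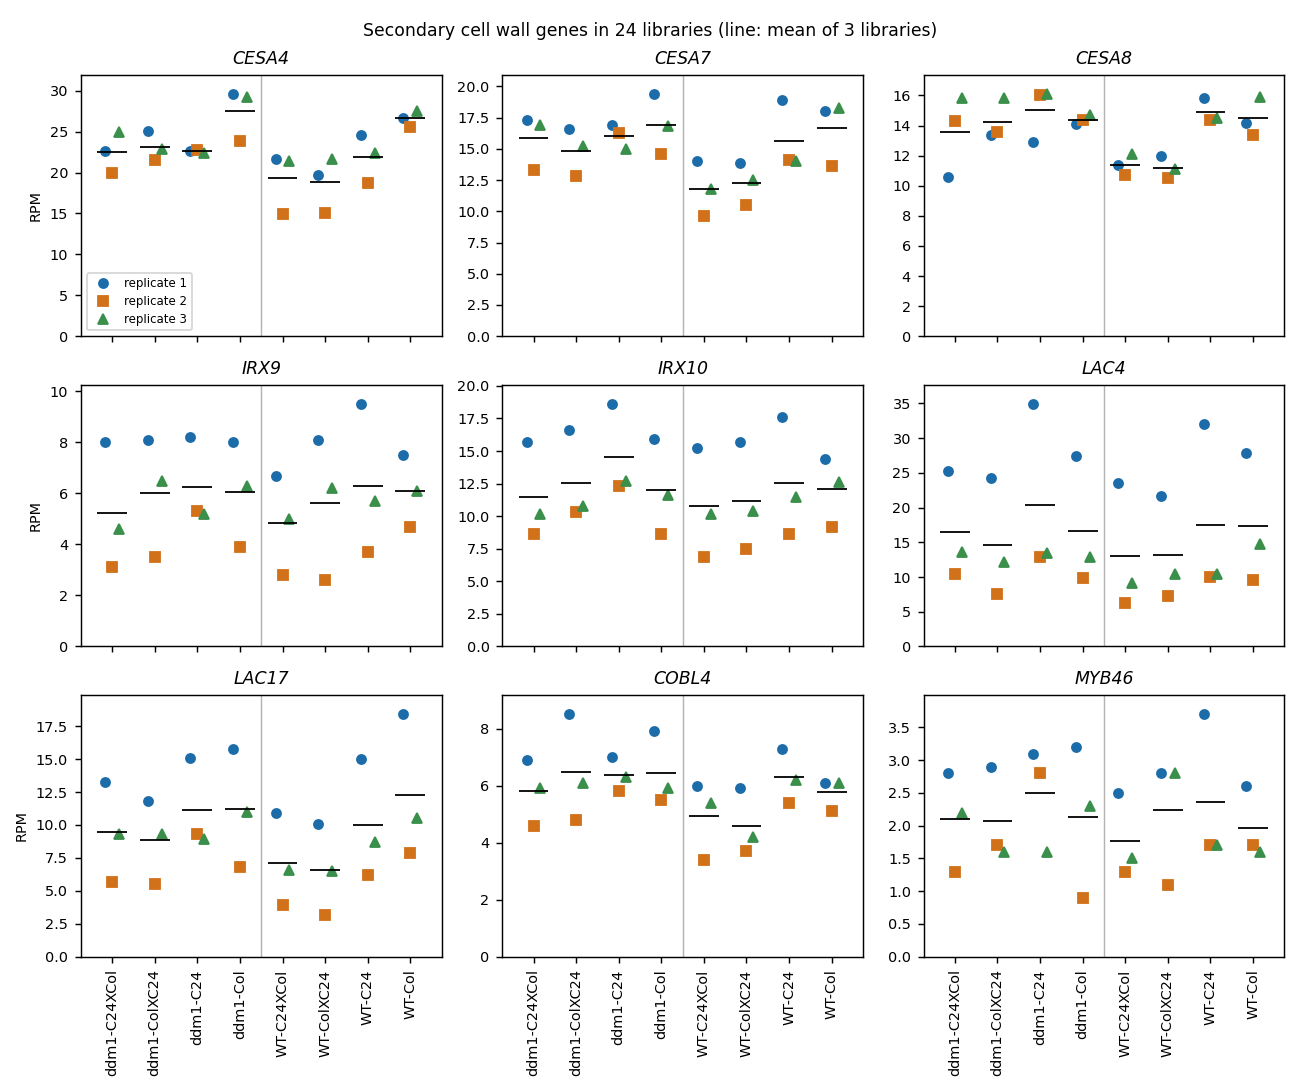
RPM of the 9 tested genes in each of the 24 libraries, with the 4 ddm1 genotypes left and the 4 WT genotypes right of the grey line. Symbols give the replicate number and black lines the mean of 3 libraries; CESA8 lay at 10.5 to 12.1 RPM in the 6 WT-F1 libraries and above them in every WT parent library, while LAC4 was highest in number 1 of every genotype.

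Do hybrids depart from the mid-parent value at these genes, and does that departure need DDM1? All 9 tested members were on average below the MPV in both backgrounds. The median difference in log2(RPM + 0.5) was -0.14 (range -0.29 to -0.08) in ddm1-F1, against a median of -0.07 over all tested genes, 64.8% of which were below 0. In WT-F1 the median was -0.36 (range -0.69 to -0.11), against -0.07 over all tested genes, 77.5% of which were below 0. Library scaling by median ratios (DESeq-type factors) took the median of all genes to -0.01 in ddm1-F1 and to 0.00 in WT-F1, and the members were then at a median of -0.08 and -0.28.

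In ddm1-F1 every error of a difference without the block was close to the difference or larger. CESA4 averaged 22.8 ± 2.01 RPM in ddm1-F1 and 25.1 ± 1.51 RPM at the ddm1 MPV, a log2 difference of -0.14 ± 0.12 (SE). CESA7 was at -0.11 ± 0.14, CESA8 at -0.09 ± 0.15, COBL4 at -0.08 ± 0.20, IRX10 at -0.15 ± 0.24, IRX9 at -0.17 ± 0.33, MYB46 at -0.14 ± 0.25 and LAC4 at -0.23 ± 0.43. LAC17 was the lowest, at -0.29 ± 0.31. No member passed in limma without the block, at an adjusted or at an unadjusted p under 0.05, where 2.23% and 7.61% of all genes did. With the block LAC17 was lower (adjusted p = 0.0404 in limma), 1 of 9 against 15% of all genes, and that call was lost with median-ratio scaling (0.0680) and in 7 of 12 fits that left out 1 library (up to 0.281, with ddm1-C24 replicates 1 and 2 among them). With ddm1-C24 replicates 2 and 3 averaged as 1 sample LAC17 was at -0.47 (limma adjusted p = 0.0232). That sample was blocked as number 2 although both libraries went with number 3, so this fit cannot show whether the call holds.

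The cellulose synthases had the smallest errors in WT-F1. CESA8 averaged 11.3 ± 0.660 RPM in WT-F1 (SD, n = 6) and 14.7 ± 0.70 RPM at the WT MPV (SD, n = 3), a log2 difference of -0.37 ± 0.10 (SE). CESA7 averaged 12.1 ± 1.78 RPM in WT-F1 and 16.2 ± 2.30 RPM at the MPV, a log2 difference of -0.41 ± 0.16. CESA4 averaged 19.1 ± 3.22 RPM in WT-F1 and 24.3 ± 1.85 RPM at the MPV, a log2 difference of -0.36 ± 0.16. LAC17 had the lowest value, -0.69, with the larger error of 0.43, and LAC4 was at -0.42 ± 0.52, COBL4 at -0.33 ± 0.21, IRX9 at -0.28 ± 0.39, IRX10 at -0.18 ± 0.31 and MYB46 at -0.11 ± 0.30.

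No member passed limma's test at an adjusted p under 0.05 in WT-F1 without the block, where 0.0672% of all tested genes passed; at an unadjusted p under 0.05, CESA7 and CESA8 were lower, against 2.16% of all genes. Blocking on the number gave smaller errors, and CESA7 (SE 0.046, adjusted p = 0.0443) and CESA8 (SE 0.046, adjusted p = 0.0488) were called lower by limma, 2 of 9, against 0.367% of all genes called lower. LAC17 (adjusted p = 0.0565), LAC4 (0.0986) and CESA4 (0.103) did not pass in that limma fit, though LAC17 did in the blocked fits with a pseudocount of 1 (0.0479) or without limma's trend (0.0441). Both calls were lost with any 1 of the 12 libraries left out (adjusted p 0.0532 to 0.225 for CESA7 and 0.0672 to 0.252 for CESA8) and with median-ratio scaling (0.0876 and 0.107).

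The difference between the backgrounds was fitted directly, as the departure from MPV in ddm1 minus that in WT. It was above 0 for 8 of the 9 members, with a median of 0.22 against 0.01 over all tested genes, and its size was 0.30 ± 0.21 (SE) for CESA7, 0.28 ± 0.17 for CESA8 and 0.22 ± 0.19 for CESA4. None of the 9 passed in limma at an adjusted or unadjusted p under 0.05 (0.761% and 3.38% of all genes did). With the block no member passed in limma either, against 2.62% of all genes, CESA7 having the lowest adjusted p (0.115), although CESA4, CESA7, CESA8 and LAC17 had an unadjusted p under 0.05. The share of all genes at that unadjusted threshold is not given here. The departure from MPV was thus not shown to differ between ddm1 and WT for any member.

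**Figure D3:**
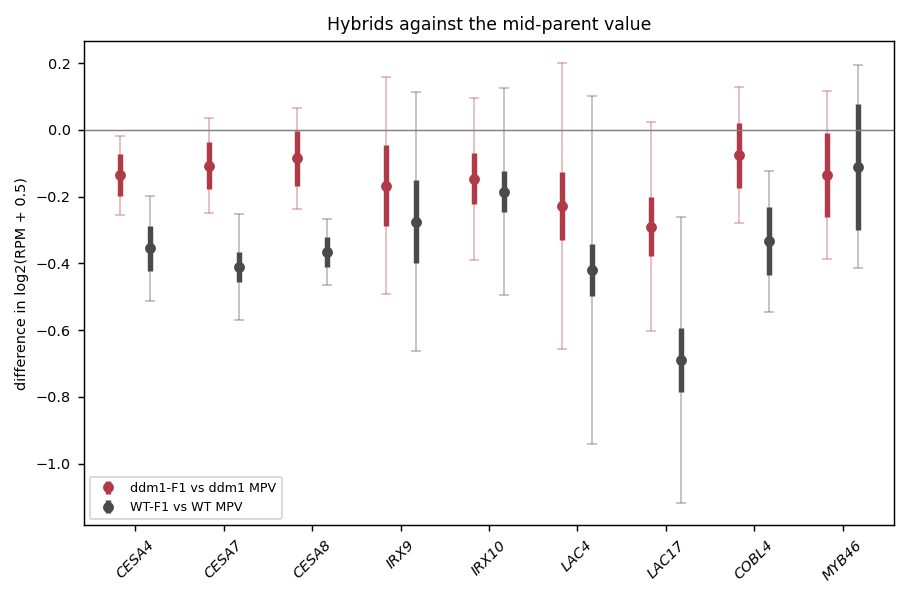
Difference in log2(RPM + 0.5) between hybrids and the mid-parent value for the 9 tested genes, ddm1 (red, left of each pair) and WT (grey, right); thin bars are the SE without and thick bars the SE with the replicate number as a block. All 18 values were below 0, from -0.29 to -0.08 in ddm1-F1 and from -0.69 to -0.11 in WT-F1.

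Counted within replicate numbers, none of the 9 members was below both same-numbered parents in all 6 ddm1-F1 libraries, against 1.98% of all tested genes, and CESA4 was below both in 2 libraries, CESA7 in 3 and CESA8 in 3. In WT-F1 CESA4, CESA7, CESA8, LAC17 and COBL4 were below both in each of the 6 libraries, 5 of 9 members against 2.88% of all tested genes. The ddm1 counts pair number 2 hybrids with ddm1-C24 replicate 2, whose label is in doubt as described above. Both CESA4 cases were of that number, at 19.9 and 21.5 RPM, against 22.8 RPM in ddm1-C24 and 23.9 RPM in ddm1-Col. The ddm1 and WT counts are therefore not like for like. These counts were chosen after the values were seen and carry no test.

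The hybrids were also set against each single parent. Relative to ddm1-C24 the members had a median log2 difference of -0.19 (range -0.35 to 0.01), against -0.10 over all genes, with 8 of 9 below 0. With median-ratio scaling the median was -0.08 (range -0.24 to 0.12) with 5 of 9 below 0, against 0.01 over all genes. Relative to ddm1-Col the median was -0.09 (range -0.27 to 0.04), against 0.00. Without the block no member passed in limma at an adjusted or unadjusted p under 0.05 in either comparison, where 14.9% of all genes passed the adjusted and 26.5% the unadjusted threshold against ddm1-C24, and 2.1% and 8.69% against ddm1-Col. With the block LAC4 (-0.35 ± 0.12 SE, limma adjusted p = 0.0405) and IRX10 (-0.28 ± 0.089, 0.0281) were lower than in ddm1-C24, 2 of 9 against 29.2% of all genes. Neither was called after median-ratio scaling (0.105 and 0.145), nor without ddm1-C24 replicate 1 or 2, whose omission left no member called. With replicates 2 and 3 averaged as 1 sample, LAC4 (-0.51, limma adjusted p = 0.0111) and LAC17 (-0.46, 0.0150) were called and IRX10 was not (0.0556). That sample was again blocked as number 2, so this fit cannot settle these calls. CESA4 (-0.26 ± 0.063, limma adjusted p = 0.0127) and LAC17 (-0.27 ± 0.075, 0.0262) were lower than in ddm1-Col with the block, 2 of 9 against 10.6% of all genes. Without ddm1-Col replicate 1 or 3 neither of these was called.

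The WT-F1 hybrids were on average below each WT parent at all 9 members. Relative to WT-C24 the median log2 difference was -0.36 (range -0.54 to -0.19), against -0.07 over all tested genes. Relative to WT-Col it was -0.34 (range -0.83 to -0.02), against -0.06. Both comparisons use the same WT-F1 libraries, and under median-ratio scaling MYB46 turned from -0.02 to 0.04 against WT-Col.

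Without the block no member passed in limma against WT-C24, where 2.41% of all genes did, nor against WT-Col, where 0.932% did. At an unadjusted p under 0.05 CESA8 was lower than in WT-C24, against 5.94% of all genes, and CESA4, CESA7 and CESA8 were lower than in WT-Col, against 4.01%. With the block 5 members were lower than in WT-C24, against 10% of all genes called lower. These were CESA8 (-0.38 ± 0.051 SE, limma adjusted p = 0.00645), LAC17 (-0.54 ± 0.094, 0.0161), CESA7 (-0.36 ± 0.067, 0.0185), COBL4 (-0.39 ± 0.097, 0.0482) and IRX10 (-0.19 ± 0.049, 0.0498). With the block 5 were lower than in WT-Col, against 6.21% of all genes: LAC17 (-0.83 ± 0.10 SE, limma adjusted p = 0.00955), CESA7 (-0.45 ± 0.060, 0.0116), CESA8 (-0.34 ± 0.056, 0.0206), CESA4 (-0.49 ± 0.084, 0.0238) and LAC4 (-0.45 ± 0.087, 0.0330).

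CESA7, CESA8 and LAC17 were thus below both WT parents in the blocked fit. Of these 10 calls, CESA8 against WT-C24 was the one that held in all 9 fits with 1 library left out (adjusted p 0.0121 to 0.0482). With block and median-ratio scaling together CESA7, CESA8 and LAC17 kept their calls against WT-C24, and CESA4, CESA7 and LAC17 against WT-Col, where CESA8 had an adjusted p of 0.0599. Leaving out WT-C24 replicate 1 or 2 left 1 member called against WT-C24, and leaving out WT-Col replicate 1 left 1 called against WT-Col.

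**Figure D4:**
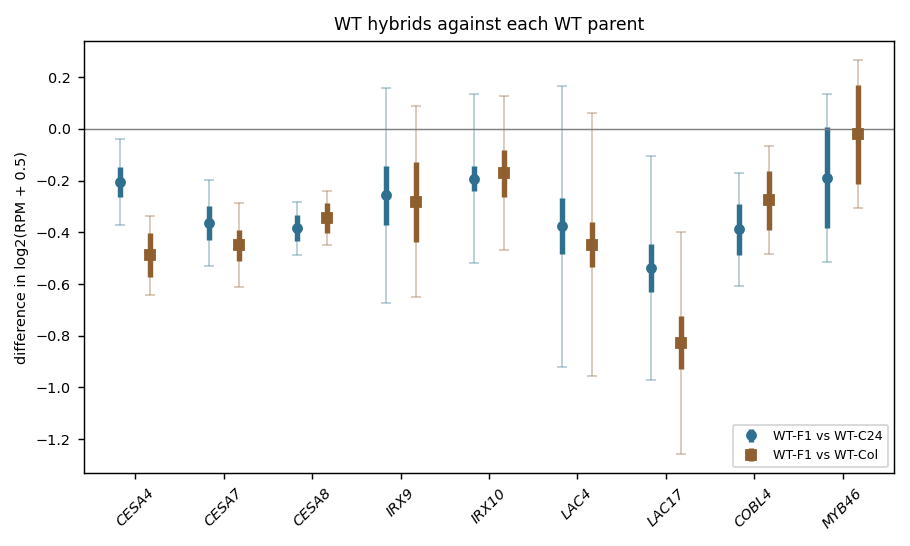
Difference in log2(RPM + 0.5) between the WT-F1 hybrids and WT-C24 (circles) or WT-Col (squares) for the 9 tested genes; thin bars are the SE without and thick bars the SE with the replicate number as a block. Values ran from -0.54 to -0.19 against WT-C24 and from -0.83 to -0.02 against WT-Col, lowest for LAC17 in both.

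The hybrids themselves were compared between backgrounds. All 9 members were on average higher in ddm1-F1 than in WT-F1, with a median log2 difference of 0.28 (range 0.07 to 0.44), against -0.03 over all tested genes. CESA4 averaged 22.8 ± 2.01 RPM in ddm1-F1 and 19.1 ± 3.22 RPM in WT-F1 (SD, n = 6 each). CESA7 averaged 15.4 ± 1.92 RPM in ddm1-F1 and 12.1 ± 1.78 RPM in WT-F1, and CESA8 13.9 ± 1.93 RPM in ddm1-F1 and 11.3 ± 0.660 RPM in WT-F1. Within the same direction of cross and the same number, ddm1-F1 was above WT-F1 in 6 of 6 pairs for CESA4, CESA7, LAC4, LAC17 and COBL4, 5 of 9 members against 12.7% of all genes.

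No member passed in limma without the block, where 10.4% of all genes did, and at an unadjusted p under 0.05 CESA7 and CESA8 were higher, against 10.9% of all genes. With the block 6 of 9 rose in ddm1-F1, against 13.5% of all genes. LAC17 was at 0.44 ± 0.080 (SE, limma adjusted p = 0.000903), CESA7 at 0.34 ± 0.058 (0.000503), COBL4 at 0.33 ± 0.082 (0.00816), LAC4 at 0.30 ± 0.088 (0.0244), CESA8 at 0.28 ± 0.082 (0.0233) and CESA4 at 0.27 ± 0.065 (0.00740). All 6 kept their calls with block and median-ratio scaling together. LAC17, CESA7, COBL4 and CESA4 were called in all 12 blocked fits that left out 1 library, CESA8 in 6 and LAC4 in 9 of them. This comparison shares the WT-F1 libraries with those against the WT parents.

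No member was called between ddm1 and WT parents. In ddm1-C24 against WT-C24 the members ran from 0.00 to 0.27 on the log2 scale and in ddm1-Col against WT-Col from -0.12 to 0.13, and none passed in limma at an adjusted or unadjusted p under 0.05, without or with the block. Of all genes 9.74% and 8.04% passed without the block, and 12.4% and 18.7% with it. The difference of these effects between the accessions passed for no member at an adjusted or unadjusted p under 0.05 in limma, against 5.06% of all genes without the block and 12.5% with it. Median-ratio scaling moved the median of all genes by more than 0.1 in ddm1-Col against WT-Col (-0.10 to 0.02), in ddm1-F1 against ddm1-C24 (-0.10 to 0.01), in ddm1-C24 against ddm1-Col (0.10 to 0.00) and in the accession difference (0.12 to 0.01), and with it all 9 members were above 0 in ddm1-Col against WT-Col.

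Between accessions, CESA4 stood apart in overlap. All ddm1-C24 libraries (22.4 to 22.8 RPM) lay below all ddm1-Col libraries (23.9 to 29.6 RPM), with 13% of all genes so separated, and the ddm1-C24 values include the near-equal replicates 2 and 3. The WT-C24 libraries (18.7 to 24.6 RPM) likewise lay below the WT-Col libraries (25.6 to 27.5 RPM), with 7.21% of all genes so separated. The log2 differences were -0.27 ± 0.17 in ddm1 and -0.28 ± 0.14 in WT (SE), and neither passed in limma (adjusted p = 0.402 and 0.549), where 13.3% and 3.8% of all genes did. With the block the adjusted p was 0.149 in ddm1 and 0.175 in WT, where 32% and 6.82% of all genes passed, and in ddm1 it was 0.0427 with block and median-ratio scaling together. No other member passed between accessions in these fits, although LAC17 was lower in WT-C24 than in WT-Col (-0.29, limma adjusted p = 0.0487) in the blocked fit without limma's trend. None passed between the reciprocal hybrids in either background, where 0 and 5 of all tested genes did (0% and 0.0224%), or 208 and 5 with the block (0.932% and 0.0224%). No member had an unadjusted limma p under 0.05 in these 4 comparisons in the fits ignoring the number. When blocked, CESA4 and LAC17 between the WT accessions and LAC4 between the ddm1 hybrids did, with no share of all genes given here for that threshold.

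Other genes of secondary wall formation were counted from lists of 26 regulators, 16 xylan, 19 lignin, 7 cellulose and 6 xylem cell death genes. Of these 74, 70 were tested. Against the MPV none passed in limma without the block in either background, yet 54 of 70 were below 0 in ddm1-F1 (median -0.11) and 66 of 70 in WT-F1 (median -0.24), beside the 64.8% and 77.5% of all genes given above. With the block 4 of 70 were lower in ddm1-F1, a smaller share than the 15% of all genes, and none was called in WT-F1. The 4 were the monolignol enzymes CAD4 (-0.41, limma adjusted p = 0.0117), PAL1 (-0.38, 0.0239) and C4H (-0.28, 0.00753) and the vessel protease XCP1 (-0.22, 0.0449). The number 2 MPV holds ddm1-C24 replicate 2. PAL1 was at 92.8 and 91.1 RPM in the number 2 hybrids, against 227.8 RPM in ddm1-C24 and 94.5 RPM in ddm1-Col of that number. Without ddm1-C24 replicate 2 none of the 4 passed in limma, with CAD4 at -0.28 (adjusted p = 0.112), PAL1 at -0.17 (0.123), C4H at -0.20 (0.0626) and XCP1 at -0.15 (0.293), and 1 of the 70 was called. With replicates 2 and 3 as 1 sample, blocked as number 2, 11 were, and this fit cannot settle the count.

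In WT-F1 the xylem cell death list had the lowest median of these lists, -0.37, with all 6 tested genes below 0. XCP1, a cysteine protease of dying vessels, was at 9.8, 13.1 and 27.5 RPM (lowest, median, highest) in WT-F1, against 16.9, 19.6 and 25.1 RPM in WT-C24 and 21.8, 26.3 and 39.8 RPM in WT-Col. Its log2 difference from the WT MPV was -0.64 (limma adjusted p = 0.0999 with the block). The primary wall cellulose synthases, which act in expanding cells, had a median of 0.10 in ddm1-F1 and of -0.03 in WT-F1 over 6 tested genes of 7. In ddm1-F1 CESA2 was higher with the block (0.18, limma adjusted p = 0.0483), a call kept in 2 of 12 fits with 1 library left out and lost without ddm1-C24 replicate 2 (0.14, 0.258), and none passed in WT-F1.

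**Figure D5:**
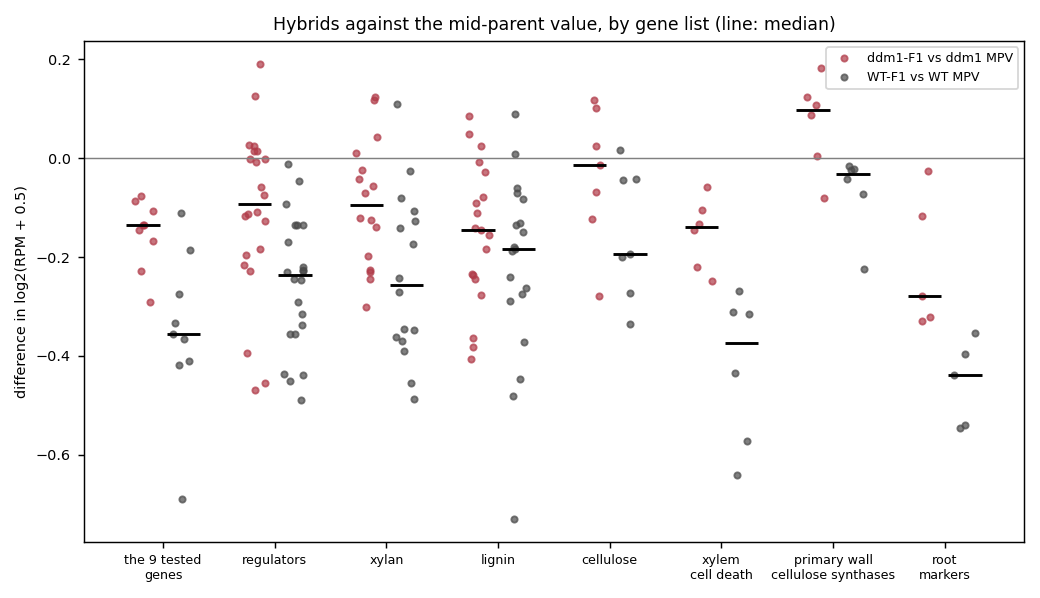
Difference in log2(RPM + 0.5) from the mid-parent value for each gene of the lists, ddm1 (red, left of each pair) and WT (grey, right), with black lines at the median of a list. In WT-F1 the median was -0.36 for the 9 tested genes, -0.37 for xylem cell death genes, -0.44 for root markers and -0.03 for primary wall cellulose synthases.

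Against the single WT parents with the block, 7 of 70 list genes were lower and 1 higher than in WT-C24, where 10% and 4.8% of all genes were. Against WT-Col 12 were lower and none higher, where 6.21% of all genes were lower. Without WT-C24 replicate 1 or 2, 1 was lower than in WT-C24, and without WT-Col replicate 2, 1 was lower than in WT-Col. Among the 12 lower than in WT-Col were XCP1 (-0.86, limma adjusted p = 0.010), BFN1, a nuclease of dying cells (-0.86, 0.0259), and the xylem serine peptidase XSP1 (-0.63, 0.00650). The regulators KNAT7 (-0.54, limma adjusted p = 0.0151) and VND4, a vessel NAC factor (-0.54, 0.0300), were lower too. So were TBL29, a xylan acetyltransferase (-0.45, limma adjusted p = 0.0166), and the lignin genes 4CL2 (-0.55, 0.0249) and CSE (-0.46, 0.0128). XSP1 was called in all 9 fits with 1 library left out, CSE in 8, XCP1 in 7, KNAT7 and TBL29 in 6, BFN1 in 4, VND4 in 3 and 4CL2 in 2. Those lower than in WT-C24 included WRKY12, a repressor of wall formation in pith (-0.81, limma adjusted p = 0.0359), called in 2 of 9 such fits. Of the lignin genes, the laccase LAC11 (-0.59, limma adjusted p = 0.0228) was called in 4, PRX66 (-0.31, 0.0191) in 7 and CYP98A3 (-0.30, 0.00173) in all 9. XSP1 was the gene higher than in WT-C24 (0.21, limma adjusted p = 0.0290), called in 3. Between the hybrids, 13 of 70 were higher and 1 lower in ddm1-F1 than in WT-F1 with the block, where 13.5% and 11.5% of all genes were. XCP1 differed by the most (0.68, limma adjusted p = 4.87e-05), and GUX1, which adds glucuronic acid to xylan, rose by 0.46 (0.00369), and both were called in all 12 fits with 1 library left out. Those named between the hybrids were chosen after their values were seen. Without the block none of the 70 passed in these 3 comparisons. Against ddm1-C24 without the block, the lignin regulator MYB85 (-0.87, limma adjusted p = 0.0267), WRKY12 (-0.61, 0.0257) and the lignin enzyme CYP98A3 (-0.46, 0.0175) were lower and VND3 was higher (0.58, 0.0403) in ddm1-F1. With the block 14 of 70 were lower and 5 higher in ddm1-F1 than in ddm1-C24, both smaller shares than the 29.2% and 17.6% of all genes, and 9 were lower and 4 higher without ddm1-C24 replicate 2. Against ddm1-Col 9 were lower and 2 higher with the block, where 10.6% and 8.6% of all genes were, and 2 were lower without ddm1-Col replicate 1 or 2. The 2 higher were WRKY12 (0.65, limma adjusted p = 0.00373) and CYP98A3 (0.37, 0.00186), each called in all 9 fits with 1 library left out. In ddm1-F1 these 2 genes were thus below ddm1-C24 but above ddm1-Col. None passed against ddm1-Col without the block.

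Markers of other tissues are given beside these values. The 5 root markers were all below 0 against the MPV in ddm1-F1 (median -0.28) and in WT-F1 (median -0.44), with none called in limma against the MPV, without or with the block. Their summed level was 29.0 to 55.0 RPM in ddm1-F1, 46.8 to 50.4 RPM in ddm1-C24 and 35.9 to 52.6 RPM in ddm1-Col. In WT it was 24.4 to 50.6 RPM in WT-F1, 39.4 to 46.2 RPM in WT-C24 and 38.6 to 67.4 RPM in WT-Col. PIN2, an auxin carrier of the root tip, was lower in WT-F1 than in WT-C24 (-0.39, limma adjusted p = 0.0377, called in 2 of 9 fits with 1 library left out) and WT-Col (-0.67, 0.0163, called in 7 of 9) with the block, and higher in ddm1-F1 than in WT-F1 (0.45, 0.00136, called in 12 of 12). PIN2 was also lower in ddm1-F1 than in ddm1-C24 with the block (-0.43, limma adjusted p = 0.0221, called in 6 of 9). That call was lost without ddm1-C24 replicate 2 (-0.28, 0.129). The root marker EXPA7 was lower in ddm1-F1 than in ddm1-Col (-0.45, limma adjusted p = 0.0413, called in 2 of 9) with the block. In WT-F1 EXPA7 was lower than in WT-Col (-0.71, 0.0345, called in 1 of 9). The 3 phloem markers had medians of 0.08 in ddm1-F1 and -0.17 in WT-F1 and the 3 cambium markers -0.15 in ddm1-F1 and -0.19 in WT-F1, with none called against the MPV. With the block the phloem marker SEOR1 was higher in ddm1-F1 than in ddm1-C24, and the cambium marker PXY lower than in ddm1-Col. The 2 green tissue markers had medians of 0.18 in ddm1-F1 and 0.17 in WT-F1 against the MPV. Of these LHCB2.1 was called higher in ddm1-F1 than the MPV and ddm1-C24 with the block. Both hold ddm1-C24 replicate 2, whose LHCB2.1 level was like that of number 3. FUL, a MADS factor of late shoot stages, was lower in WT-F1 than its MPV with the block (-1.01, limma adjusted p = 0.0443), a call lost with any 1 of the 12 libraries left out (up to 0.225). FUL was also lower in WT-F1 than in WT-C24 (-0.97, limma adjusted p = 0.00388, called in 9 of 9) and WT-Col (-1.05, 0.0140, 7 of 9). Between the hybrids FUL (0.59, limma adjusted p = 0.0163) and the floral marker SEP3 (1.40, 1.26e-06) were higher in ddm1-F1 with the block. Both were called in 12 of 12 fits with 1 library left out. The part of tissue share in the member values was not tested.

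The members also resembled each other across libraries. Pearson's r of each member with the mean of the other tested members, over the 24 libraries, which share replicate numbers, was 0.97 for LAC17, 0.93 for IRX10, 0.92 for IRX9, 0.90 for LAC4, 0.89 for COBL4, 0.87 for CESA7, 0.79 for MYB46, 0.69 for CESA4 and 0.27 for CESA8. With the mean of each number removed CESA8 was at 0.79, CESA4 at 0.77 and MYB46 at 0.42. Of the genes outside the members, those most like the member mean over the 24 libraries were BRL2 (r = 0.96), a brassinosteroid receptor-like kinase of vascular tissue, EDA4 (0.95), EXT13 (0.94), AT1G78260 (0.94), CUL3B (0.94), LAC11 (0.94), MYB88 (0.93), NAC007, which is VND4 (0.93), AT5G20080 (0.93) and UGD3 (0.93), which makes the UDP-glucuronic acid from which xylan is built. With the number means removed the list was led by AT2G28315 (0.90), EIR1, which is PIN2 (0.89), and KLCR2 (0.88), and BRL2 was among the 10 highest (0.87). These values describe the same 24 libraries and carry no test.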

How the data were processed

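RNA from whole 2-week-old seedlings was sequenced as paired ends. Per the labels the authors used TopHat, HTSeq and the TAIR10 genome; the deposited values are RPM, reads per gene scaled to a fixed library total, rounded to 0.1, so depth is unknown and counts could not be recovered. Columns summed to 999819.3 to 1000187.1. Here, log2(RPM + 0.5), which understates changes of low genes, was tested with limma 3.58.1 (trend, two-sided) in R 4.3.3 over 22329 genes with at least 1 RPM in 3 or more libraries, with Benjamini-Hochberg adjustment and a threshold of 0.05. Each fit held the groups compared. The scripts were tested on simulated data. Same-numbered libraries correlated, after removal of genotype means, with a mean r of 0.757 (84 pairs, lowest 0.159), others with -0.360 (168 pairs), so replicate numbers were taken as pairs and the blocked fit is given beside the unblocked one where it changes a call. Members and lists were chosen with earlier results of these data known. Genes outside the members were named as those past the threshold with the largest differences from the MPV or a parent, at most 3 per list and direction, as the 10 most correlated with the member mean, and DDM1. Root, phloem, cambium, floral and green tissue markers were counted likewise. Alternatives were other pseudocounts, filters, scalings, fits and omissions; the blocked fits under other settings were added after the data were seen. Coordinates and sequences are from RefSeq TAIR10.1. 4 bisulfite samples were not analysed here.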

Additional observations from a re-analysis of the deposited data

Results flagged for a closer look

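Among the 6 ddm1-F1 libraries, NST1 was listed at 0.1 RPM in ddm1-C24XCol replicate 3 and at 0 in the others, and among the 6 WT-F1 libraries at 0.1 RPM in WT-ColXC24 replicate 3 and at 0 in the others. Each of these samples was flagged as far from the rest of its group by the test used for the 10 members in both hybrid groups. That test flags about 1 group in 20 by chance when values are not tied. Here 0.1 RPM is the smallest step of the table and the other values were all 0, so any single 0.1 would be flagged. The flag thus says nothing about these samples.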

How the results depend on the processing

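Without the replicate block no member was called in any of the 15 comparisons, and the block moved the count to 1 (ddm1-F1 against MPV), 2 (WT-F1 against MPV), 2 (against ddm1-C24), 2 (against ddm1-Col), 5 (against WT-C24), 5 (against WT-Col) and 6 (ddm1-F1 against WT-F1), and to 0 in the other 8. With block and median-ratio scaling these counts were 0, 0, 0, 2, 3, 3 and 6, and 1 between ddm1-C24 and ddm1-Col. Fits without the block gave 1 member against WT-C24 with no filter on low values, and 1 without limma's trend; at an unadjusted p they gave 2 (WT-F1 against MPV), 1 (WT-C24), 3 (WT-Col) and 2 (ddm1-F1 against WT-F1).

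The following blocked fits were chosen after the data were seen. With the block, 0 members were called in ddm1-F1 against MPV with no filter, 1 in WT-F1 against MPV with a pseudocount of 0.1 and 3 with a pseudocount of 1 or without the trend, 1 against ddm1-C24 without the trend, and 1 (LAC17) between WT-C24 and WT-Col without the trend. With 1 direction of cross alone, ColXC24 hybrids gave 0 calls, except 2 in ddm1-F1 against WT-F1 and 2 against ddm1-Col, and C24XCol hybrids gave 0, except 1 against ddm1-Col. Unadjusted p-values with the block gave 2 members in ddm1-F1 and 7 in WT-F1 against MPV, and 4 for their difference. The share of all genes in that setting is not given here, so these counts cannot be set against it. Leaving out each library in turn, blocked counts ran from 0 to 1 and 0 to 0 in ddm1-F1 and WT-F1 against MPV, 0 to 2 against each ddm1 parent, 1 to 5 against each WT parent and 4 to 6 in ddm1-F1 against WT-F1. Leaving out a parent library removed that number's MPV.

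In fits without the block, some directions turned when 1 library was left out, most often a number 1 parent. The log2 range in ddm1-F1 against MPV was -0.34 to 0.036 for IRX9, -0.30 to 0.051 for IRX10, -0.50 to 0.21 for LAC4, -0.17 to 0.031 for COBL4 and -0.25 to 0.067 for MYB46. In WT-F1 against MPV it was -0.39 to 0.016 for IRX10, -0.74 to 0.044 for LAC4 and -0.24 to 0.14 for MYB46, which was at 0.0044 with ColXC24 alone. LAC4 ran from -0.59 to 0.11 against ddm1-C24, LAC17 from -0.57 to 0.0059 against ddm1-Col and IRX10 from -0.42 to 0.072 against WT-C24. With the block these 3 did not turn. Their ranges were then -0.50 to -0.27, -0.29 to -0.24 and -0.21 to -0.17. The cause was not tested. CESA4, CESA7 and CESA8 kept their direction against both MPVs in every one of these fits. Depth is unknown, so precision for low genes such as MYB46 could not be given.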
